A study of Mus musculus with 5 samples.

Results

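Genes of fat cells and of lipid storage were examined in the forelimb muscle of mouse embryos of the C57BL/6 strain at stage E15.5. Noggin-deficient tissue (3 libraries) was set against wild type control tissue (2 libraries). The set holds 8 genes, Adipoq, Plin1, Gpd1, Fabp4, Pparg, Dgat2, Ppara and Cidea, out of 4743 genes with values in the deposited tables. They had been picked by name from an earlier reading of this same comparison, so their differences between the groups are given as a description and carry no test. Each of the 8 had a value in every library. The labels give neither the allele behind the Noggin deficiency nor whether a library came from a single embryo or a pool. The p-values of other genes therefore measure only the spread between these libraries, which may be technical.

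Fat cells keep triglyceride in a droplet coated with perilipins, build it from glycerol phosphate and fatty acids, and release fatty acids from it by lipolysis. Pparg, a nuclear receptor, directs the formation of fat cells and switches on many of the genes described here. Its relative Ppara directs fatty acid oxidation in tissues such as liver, heart and brown fat. White fat stores lipid, whereas brown fat, which forms before birth in mice and arises in part from a lineage shared with muscle, burns it through the uncoupling protein Ucp1. Noggin binds bone morphogenetic proteins (BMPs) outside the cell, and BMPs are known to promote fat cell formation, BMP7 being known for brown fat.

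So that sequences can be set beside the values, promoters are shown for Adipoq and Plin1, which had the largest ratios of the means. Promoters of the PPAR pair, which differed in opposite directions, are shown as well. Each window holds the 250 bases before a RefSeq transcription start on GRCm38.p6, written 5′ to 3′ on the strand of the gene. Windows of 4 of the 8 genes were searched and are described here. Capitals mark the letters of 4 motifs searched on both strands, which were AGGTCA (the core bound by nuclear receptors), TTGCNNAA (of the kind bound by C/EBP factors), CCAAT and TATAAA. The direct repeat of AGGTCA with a single base between its copies, to which PPARs bind with RXRs, was searched as well.
Adipoq, chr16:23146286-23146535, plus strand: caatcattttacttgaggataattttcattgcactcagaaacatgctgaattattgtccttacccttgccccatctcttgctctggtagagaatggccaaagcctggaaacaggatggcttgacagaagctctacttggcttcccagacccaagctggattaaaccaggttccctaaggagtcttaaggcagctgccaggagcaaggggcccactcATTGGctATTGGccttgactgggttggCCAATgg
Plin1, chr7:79732777-79733026, minus strand: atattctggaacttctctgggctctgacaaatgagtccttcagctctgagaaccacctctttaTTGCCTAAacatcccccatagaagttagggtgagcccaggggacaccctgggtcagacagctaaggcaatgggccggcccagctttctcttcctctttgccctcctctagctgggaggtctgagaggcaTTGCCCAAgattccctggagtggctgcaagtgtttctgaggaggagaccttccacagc
Pparg, most downstream of its 3 starts, chr6:115421816-115422065, plus strand: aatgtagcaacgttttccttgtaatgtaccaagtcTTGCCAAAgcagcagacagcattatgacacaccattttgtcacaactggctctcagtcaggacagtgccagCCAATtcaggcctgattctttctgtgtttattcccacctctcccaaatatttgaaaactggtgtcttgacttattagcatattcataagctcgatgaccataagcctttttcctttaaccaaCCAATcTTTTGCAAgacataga
Ppara, chr15:85735526-85735775, plus strand: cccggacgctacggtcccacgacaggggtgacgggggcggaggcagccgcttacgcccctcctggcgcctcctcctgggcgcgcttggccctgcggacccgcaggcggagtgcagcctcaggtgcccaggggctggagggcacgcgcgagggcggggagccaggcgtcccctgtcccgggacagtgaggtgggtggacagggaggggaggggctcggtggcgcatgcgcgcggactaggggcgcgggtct

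The Adipoq window held 3 CCAAT motifs, the nearest starting 7 bases before the start. Plin1 and the downstream Pparg start held 2 C/EBP-type motifs each, and that Pparg window held 2 CCAAT motifs as well, the second lying next to a C/EBP-type motif without overlap. The Ppara window held none of the motifs and was rich in G and C (76.4%), against 48.8% for Adipoq, 54.0% for Plin1 and 40.8% for the downstream Pparg start. The other 2 Pparg starts lay in windows of 82.4% and 63.6% G and C, and each held 1 AGGTCA, the second with 1 CCAAT and 1 TATAAA besides. Of all 32851 RefSeq windows of this length, 33.8% held CCAAT, 9.56% the C/EBP-type letters, 14% AGGTCA, 12.4% TATAAA and 0.0335% the direct repeat, which none of the 6 windows of these 4 genes held. Such matches describe the letters of these windows and show no binding.

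The deposited values are in a unit that is not named, so values are compared between libraries and not between genes. They summed to 92210 to 93695 in the Noggin-deficient libraries and to 100792 to 102783 in the wild type libraries over the listed genes. Nog itself had 0.49, 0.42 and 0.42 in Noggin-deficient tissue, against 2 and 1.99 in wild type tissue. Sarcomere genes, which define muscle, were present in every library, with summed values of 6906 to 7208 in Noggin-deficient tissue and 9729 to 9907 in wild type tissue over 35 listed genes. The tables hold genes that already differ between these groups: the libraries did not overlap for 98.2% of all listed genes (41.2% higher and 57.1% lower in Noggin-deficient tissue), and limma's moderated test called 98.0% of 3913 tested genes at an adjusted p under 0.05. A call or a gap between the groups therefore says little about any one gene, and the size of a difference is what follows. In bulk tissue, a change in the number of fat cells and a change in RNA per cell cannot be told apart.

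Of the 8 genes, 5 were higher and 3 lower in Noggin-deficient tissue, and the groups did not overlap for any of the 8, as for 98.2% of all listed genes. The 5 higher genes were Adipoq, Plin1, Gpd1, Fabp4 and Pparg, which belong to white as well as brown fat cells. The 3 lower genes were Dgat2, Ppara and Cidea. All but Plin1 reached the minimum of 0.5 used for testing in all 5 libraries. Plin1 reached it in the 3 Noggin-deficient libraries alone, so that its inclusion depended on the group in which it was high.

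**Figure D1:**
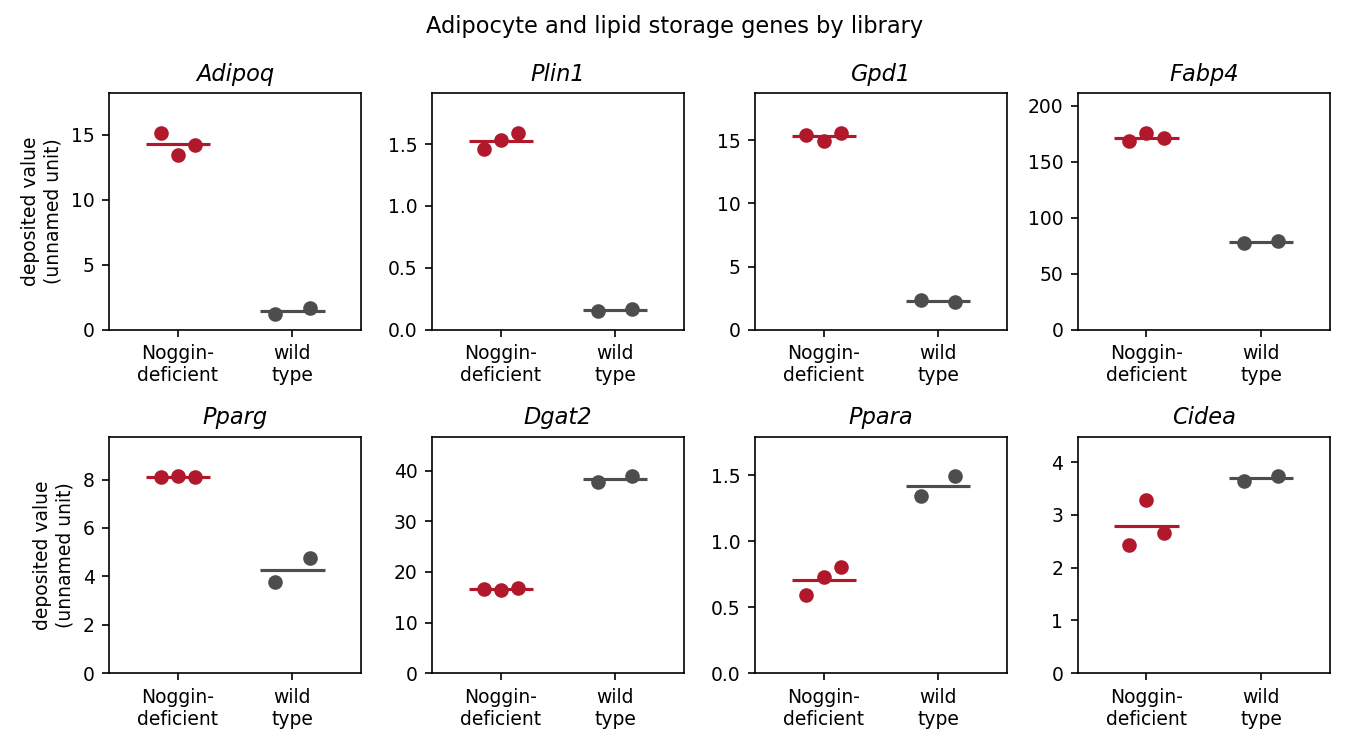
Deposited value (vertical axis, unnamed unit, starting at 0) of each of the 8 genes in 3 Noggin-deficient (red, left) and 2 wild type libraries (grey, right). Points are libraries and lines are group means. Adipoq, Plin1, Gpd1, Fabp4 and Pparg lie higher and Dgat2, Ppara and Cidea lower in the Noggin-deficient libraries, Cidea with the narrowest gap.

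Adipoq encodes adiponectin, a hormone made by fat cells. Its values were 15.16, 13.42 and 14.25 in the Noggin-deficient libraries, against 1.23 and 1.7 in the wild type libraries. Every Noggin-deficient library was far above both wild type libraries, and even the closest pair of libraries differed 7.89-fold. The means were 14.3 ± 0.87 (SD, n = 3) in Noggin-deficient and 1.46 ± 0.332 (SD, n = 2) in wild type tissue, a ratio of 9.75. On the log2(value + 0.25) scale, on which differences of low genes come out too small, the difference was 3.09 (SE 0.111), the 17th largest rise in rank among 3913 tested genes.

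Plin1 encodes perilipin 1, which coats the lipid droplet of fat cells and guards it against lipases. Its level was 1.46, 1.53 and 1.59 in Noggin-deficient tissue, against 0.15 and 0.17 in wild type tissue. The wild type values were close to 0 and alike, and the ratio of the means was 9.54. The log2 difference was 2.12 (SE 0.0921) with the pseudocount of 0.25, and it lay between 1.12 and 2.91 with pseudocounts of 1 and 0.05. The ratio of Plin1 to Adipoq within a library was 0.0963, 0.114 and 0.112 in Noggin-deficient tissue and 0.122 and 0.1 in wild type tissue. These ratios overlapped between the groups: the hormone and the droplet coat differed by nearly the same factor.

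Gpd1 encodes the cytosolic glycerol-3-phosphate dehydrogenase, which supplies the backbone of triglycerides and is also active in liver and muscle. Values were 15.45, 14.91 and 15.59 in Noggin-deficient tissue and 2.35 and 2.19 in wild type tissue. The libraries of each group lay close together, and the log2 difference was 2.63 (SE 0.0454), with a ratio of the means of 6.75. Within a library, Gpd1 over Adipoq was 1.02, 1.11 and 1.09 in Noggin-deficient tissue and 1.91 and 1.29 in wild type tissue, so Gpd1 differed by a smaller factor than Adipoq.

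Fabp4 encodes a fatty acid binding protein of fat cells that is also found in the endothelium of small vessels and in macrophages. It had 168.17, 175.75 and 170.8 in the Noggin-deficient libraries, against 77.58 and 78.94 in the wild type libraries. The ratio of the means was 2.19 and the log2 difference 1.13 (SE 0.0294), which is less than for Adipoq, Plin1 and Gpd1. Adipoq over Fabp4 was 0.0901, 0.0764 and 0.0834 in Noggin-deficient tissue and 0.0159 and 0.0215 in wild type tissue. Gpihbp1, which holds lipoprotein lipase on capillary endothelium, had 33.18, 34.37 and 32.17 in Noggin-deficient tissue and 17.28 and 18.31 in wild type tissue.

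Pparg stood at 8.11, 8.13 and 8.09 in Noggin-deficient tissue, against 3.76 and 4.75 in wild type tissue. The Noggin-deficient libraries were nearly equal, with a coefficient of variation of 0.247%, where genes within a factor of 2 of its mean had a median of 3.7%. The wild type libraries differed more, with 16.5%, and the ratio of the means was 1.91 (log2 difference 0.90, SE 0.0852). Leaving out the first or the second wild type library gave log2 differences of 0.74 and 1.06.

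Ppara stood at 0.59, 0.73 and 0.8 in Noggin-deficient tissue, against 1.34 and 1.49 in wild type tissue. All 5 values were low and the groups stood apart, with a log2 difference of -0.80 (SE 0.117). The ratio of Pparg to Ppara within a library was 13.7, 11.1 and 10.1 in Noggin-deficient tissue and 2.81 and 3.19 in wild type tissue. Because the unit is not known to be scaled by length, that ratio is no relative abundance, and what it shows is a 3.89-fold difference between the groups.

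Dgat2 encodes an enzyme of the last step of triglyceride synthesis. Its values were 16.53, 16.42 and 16.76 in Noggin-deficient tissue and 37.81 and 38.86 in wild type tissue. Both groups were tight, the Noggin-deficient mean was 0.432 times the wild type mean, and the log2 difference was -1.20 (SE 0.029). Gpd1 and Dgat2, which act at the start and at the end of the same pathway, thus differed in opposite directions, with a Gpd1 to Dgat2 ratio of 0.935, 0.908 and 0.93 in Noggin-deficient libraries and 0.0622 and 0.0564 in wild type libraries.

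Cidea encodes a droplet protein known as a marker of brown fat in mice that is also made in sebaceous glands. It had 2.42, 3.29 and 2.65 in the Noggin-deficient libraries and 3.65 and 3.73 in the wild type libraries. This was the narrowest gap of the 8: the highest Noggin-deficient library reached 0.901 times the lower wild type library, and the Noggin-deficient libraries varied by 16.2%, against a median of 5.23% for genes of like level. The log2 difference was -0.39 (SE 0.113), and -0.13 with median-of-ratios scaling. Plin1 over Cidea was 0.603, 0.465 and 0.6 in Noggin-deficient tissue and 0.0411 and 0.0456 in wild type tissue.

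Genes of the white fat list outside the set were more often higher than lower. The list also holds genes that brown fat cells make, and Adrb3 is on the brown fat list too. It therefore cannot tell white from brown fat cells. Without the genes of the set, 10 of 14 tested rose and 4 fell (median log2 change 0.43), where 37.9% of all tested genes were called higher and 60.1% lower, with a median of -0.285. Among the 13 of these that reached the minimum in both groups, 9 rose and 4 fell (median 0.40). The whole list of 38 genes, 25 with values and 19 tested, had 15 higher and 4 lower (median 0.84), but 5 of those are genes of the set, picked for their difference. Cidec, a droplet protein of white fat that makes droplets fuse, had 1.29, 1.01 and 1.31 in Noggin-deficient tissue and 0.08 and 0.18 in wild type tissue (log2 difference 1.94, SE 0.153), and no test is given for it because, like Plin1, it reached the minimum in Noggin-deficient libraries alone. Lipe, the hormone-sensitive lipase, had 4.24, 4.7 and 4.35 in Noggin-deficient tissue, against 1.66 and 1.53 in wild type tissue (log2 change 1.34, SE 0.0682, limma adjusted p = 1.9e-06). Sncg, a synuclein of fat cells and sensory neurons, rose by 1.02. Once the trend on gene length was removed, Sncg rose by 0.58 and Lipe by 1.66. Those that fell included Nrip1, a co-repressor (-0.72), and Hoxc8 and Hoxc9, positional homeobox genes (-0.44 each). With median-of-ratios scaling Hoxc8 (-0.18) and Hoxc9 (-0.26) were not called, while Nrip1 (-0.46) was. Against a 1.5-fold change, limma's test passed 4 of the 14, all higher, and 3 of the 13 at the minimum in both groups, with backgrounds of 4.22% higher and 10.3% lower among all tested genes. Lipe and Sncg were among the 3. Car3, also on the list and named after its values were seen, rose by 1.01.

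Genes that handle fatty acids at the cell surface and in the cytosol were also more often higher. Of 9 tested carriers and uptake genes outside the set, 7 rose and 2 fell (median 0.56), against 37.9% higher and 60.1% lower among all tested genes. Of the 8 at the minimum in both groups, 6 rose and 2 fell (median 0.48). Gpihbp1 rose by 0.89 and Fabp7, a carrier of glia and other cells, by 0.60. Acbd5, a peroxisomal acyl-CoA binding protein, had a log2 change of -0.29 that became 0.01 once the trend on gene length was removed. Fabp1, the carrier of liver and gut, had 0.76, 1.4 and 1.31 in Noggin-deficient tissue and was listed at 0 in both wild type libraries, so that it was tested through the Noggin-deficient libraries alone. Cd36, a fatty acid translocase named here after its values were seen, rose by 0.39. Among the genes of the droplet and of lipolysis outside the set, 3 were at the minimum in both groups, too few to describe as a group (median 0.48). Lipe rose, as did Aqp7, the glycerol channel of fat cells, by 0.48, while Abhd5, the co-activator of the first lipase of lipolysis, had -0.46. With Cidec the median of the 4 was 0.91. Abhd5 is also needed for the skin barrier.

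Enzymes that make lipid were close to the whole table. Of 9 tested genes of triglyceride synthesis outside the set, 3 rose and 6 fell (median -0.26), against 37.9% higher and 60.1% lower and a median of -0.285 over all tested genes. Mogat2, a monoacylglycerol acyltransferase known from the gut, rose by 0.82, the mitochondrial carboxykinase gene Pck2 by 0.38 and Agpat2, an acyltransferase whose loss causes lipodystrophy, by 0.36. Once the trend on gene length was removed, Agpat2 had 0.13 and was not called, while Mogat2 had 0.64 and Pck2 0.66. Acsl4 (-0.65) and Acsl1 (-0.64), which activate fatty acids, and the phosphatidate phosphatase gene Lpin3 (-0.41) fell. Of 8 tested genes of fatty acid synthesis, 7 fell, against 60.1% of all tested genes, and their median of -0.32 was near that of the table. The other, the elongase gene Elovl2, had a log2 difference of 0.45 and reached the minimum in Noggin-deficient libraries alone. The largest falls were of the elongase genes Elovl4 (-1.30), Elovl7 (-1.28) and Elovl1 (-0.63), of which Elovl4 and Elovl1 are needed for the lipids of the epidermal barrier. With median-of-ratios scaling these medians moved to 0.00 for triglyceride synthesis and -0.07 for fatty acid synthesis, against -0.030 over all tested genes. Without the length trend they were 0.09 and -0.20, against 0.001 over all tested genes.

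Transcription factors of fat cell formation split as the whole table did. Of 11 tested outside the set, 4 rose and 7 fell (median -0.32), where 37.9% of all tested genes were higher and 60.1% lower, with a median of -0.285. Nr1h3, the liver X receptor alpha, rose by 0.72, Foxc2 by 0.52 and Rxrg, a retinoid X receptor that pairs with PPARs and is also made in muscle, by 0.48. Klf4 (-0.73), Klf5 (-0.64) and Gata3 (-0.60) fell. These 3 are known from epidermis as well as from fat cell precursors, where Gata3 holds back differentiation.

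**Figure D2:**
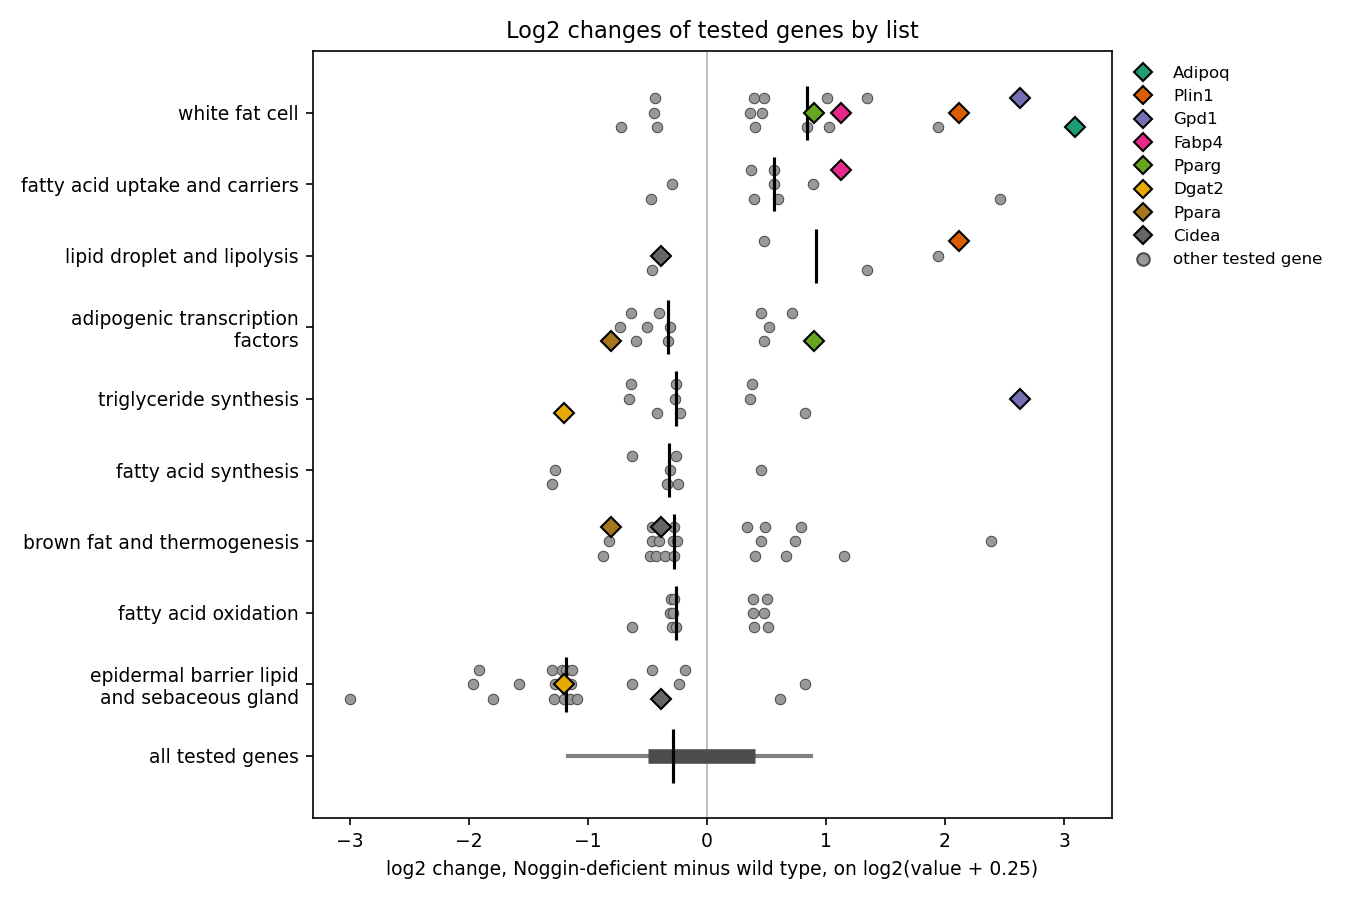
Log2 change (horizontal axis, Noggin-deficient minus wild type) of each tested gene in 9 lists, with the 8 genes as coloured diamonds, other genes as grey circles and list medians as black lines. The bottom row gives all tested genes as the middle 50% (thick) and 90% (thin) of values. White fat, uptake and droplet lists have medians above 0, that of the droplet list being 0.05 without Plin1 and Cidec, and the other 6 lists medians below 0. Of these, that of fatty acid oxidation turns to 0.01 with median-of-ratios scaling and that of triglyceride synthesis, outside the 8 genes, to 0.09 without the length trend. The median of all tested genes is -0.030 and 0.001 in those settings.

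Brown fat genes split as the whole table did. Of 45 genes on the list 29 had values and 23 were tested. Of these 9 rose, 13 fell and 1 was not called (median -0.28), against 37.9% higher and 60.1% lower and a median of -0.285 over all tested genes. Without Ppara and Cidea, 9 of 21 rose and 11 fell (median -0.27), and among the 18 of those at the minimum in both groups 7 rose and 10 fell (median -0.28). The rises were led by Zic1, a zinc finger factor that marks brown fat of the back but also dorsal mesoderm, with 3.93, 3.66 and 4.14 in Noggin-deficient tissue and 0.59 and 0.5 in wild type tissue (log2 change 2.39, SE 0.0851, limma adjusted p = 4e-07). Clstn3, a calsyntenin, rose by 0.79. Lhx8, a LIM homeobox gene, had a log2 difference of 1.15, and it and Slc36a2 reached the minimum in Noggin-deficient libraries alone, as Dio2 did in wild type libraries alone. Hspb7, a small heat shock protein of heart and muscle (-0.87), Mpzl2, an adhesion protein of epithelia (-0.82), and Acot11, a thioesterase of brown fat (-0.48), fell. Genes of the sarcomere list, which also holds the creatine kinase gene Ckm (-1.08), and epidermal genes were mostly lower in the same libraries. The part of muscle and epidermal transcripts in the values of the brown fat list was not tested.

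The defining gene of brown fat heat production was near 0. Ucp1 had 0.06, 0.07 and 0.11 in Noggin-deficient tissue and 0 and 0.01 in wild type tissue, below the minimum in every library. Other brown fat genes named after their values were seen were Ppargc1a, the co-activator of mitochondrial genes, with a log2 difference of -0.35, Dio2, a deiodinase, with -0.28 and Cox8b, a subunit of cytochrome oxidase, with -0.40. Kcnk3 (0.67) and Adrb1 (0.49), likewise named afterwards, rose. Of the 20 genes of the whole list at the minimum in both groups, 7 were called higher and 12 lower. Below the minimum, Adrb3, the beta-3 adrenergic receptor of fat cells, had 0.35, 0.28 and 0.27 in Noggin-deficient tissue and 0.15 and 0.07 in wild type tissue. Cpn2 had 0.05, 0.05 and 0.06 in Noggin-deficient tissue and was listed at 0 in both wild type libraries. The log2 changes of Ppargc1a and Dio2 were 0.00 and 0.05 once the trend on gene length was removed, while that of Cox8b was -1.12. Prdm16 was not analysed here.

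Oxidative genes were split in equal numbers. Of 13 tested genes of fatty acid oxidation, out of 59 on the list and 14 with values, 6 rose, 6 fell and 1 was not called (median -0.26), against 37.9% higher and 60.1% lower among all tested genes. Against a 1.5-fold change, limma's test passed 0 of the 13, also at an unadjusted p under 0.05, and no other tool was run. Cpt1c, a carnitine palmitoyltransferase of neurons, rose by 0.52, Acot7, a thioesterase of neurons, by 0.51 and Eci1, an isomerase of beta-oxidation, by 0.48. Pdk4, a kinase that PPARs induce and that turns muscle from glucose to fat, had 1.18, 1.47 and 1.25 in Noggin-deficient tissue and 2.17 and 2.11 in wild type tissue (log2 change -0.63, SE 0.0954, limma adjusted p = 0.00043). Bdh1, of ketone body use (-0.31), and Acad9, an acyl-CoA dehydrogenase that also assembles complex I (-0.30), fell by less. The sign of the list's median depended on the processing. It was 0.01 under median-of-ratios scaling, where the median of all tested genes was -0.030. With a stricter minimum it was 0.06, where that of all tested genes was -0.298. Of 29 citrate cycle genes 2 had values, and both rose: Pcx, pyruvate carboxylase, which is abundant in fat and liver, by 0.68 and Ogdhl by 0.37.

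Markers of other tissues differed between the same libraries. Over all listed genes, 41.2% were higher and 57.1% lower in Noggin-deficient tissue without overlap of the libraries. Liver genes had summed values of 169 to 171 in Noggin-deficient tissue and 19.6 to 21.2 in wild type tissue over the 35 of 41 that had values, 34 of them higher, with Alb at 40.24, 39.22 and 39.11 in Noggin-deficient tissue and 0.39 and 0.37 in wild type tissue. Mat1a, Itih1, Gc, Fgb, Serpina1a, Serpina1b, Serpina1c and Serpina1d were listed at 0 in both wild type libraries. Of the 30 liver genes tested, 24 reached the minimum in 1 group alone. Erythroid genes summed to 248 to 254 in Noggin-deficient tissue and 117 to 122 in wild type tissue over 14 of 27 genes. Of these 12 were higher, among them Hbb-y at 1.42, and Sptb at -0.60 was among the 2 lower. In the same list, 4 of the 14 reached the minimum in 1 group alone. Genes of the set that liver also makes include Gpd1, Ppara and, to a small extent, Pparg. Adipoq over Alb was 0.377, 0.342 and 0.364 in Noggin-deficient tissue and 3.15 and 4.59 in wild type tissue, and Gpd1 over Alb was 0.384, 0.38 and 0.399 in Noggin-deficient tissue, against 6.03 and 5.92 in wild type tissue. The part of liver transcripts in the values of the genes of the set, Adipoq, Plin1 and Dgat2 among them, was not tested.

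Epidermal genes were lower. They summed to 1777 to 1853 in Noggin-deficient tissue and to 4322 in both wild type libraries over 34 of 37 genes. Of the 34, 32 were lower, with Hrnr at -3.95, where 57.1% of all listed genes were lower without overlap. Among the genes of the epidermal lipid barrier and sebaceous gland outside the set, 18 of 21 tested fell, 2 rose and 1 was not called (median -1.19), against 60.1% lower among all tested genes, with Alox12b, a lipoxygenase of the barrier, at -3.00 and Mogat2 among the rises. Their sums were 98.2 to 101 in Noggin-deficient tissue and 203 to 204 in wild type tissue. Dgat2, which skin needs for its barrier, and Cidea are on that list too. Dgat2 over Cers3, a ceramide synthase of epidermis, was 8.18, 7.86 and 8.18 in Noggin-deficient tissue and 7.46 and 7.59 in wild type tissue, and Dgat2 over Elovl4 was 1.33, 1.27 and 1.3 in Noggin-deficient tissue and 1.18 and 1.23 in wild type tissue. Cers3 and Elovl4 were set beside Dgat2 after their values were seen, so the nearness of these ratios follows from that choice. Dgat2 over the keratin gene Krt10 was 0.058, 0.0567 and 0.0588 in Noggin-deficient tissue and 0.0441 and 0.0453 in wild type tissue, a 1.29-fold difference. Cidea over Krt10 was 0.00848, 0.0114 and 0.0093 in Noggin-deficient tissue and 0.00426 and 0.00435 in wild type tissue. The part of epidermal transcripts in the values of Dgat2, Cidea and Ppara was not tested. Sarcomere genes were lower for 34 of the 35 with values, against the same 57.1% of all listed genes, and the other, Actn3, rose by 0.70.

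**Figure D3:**
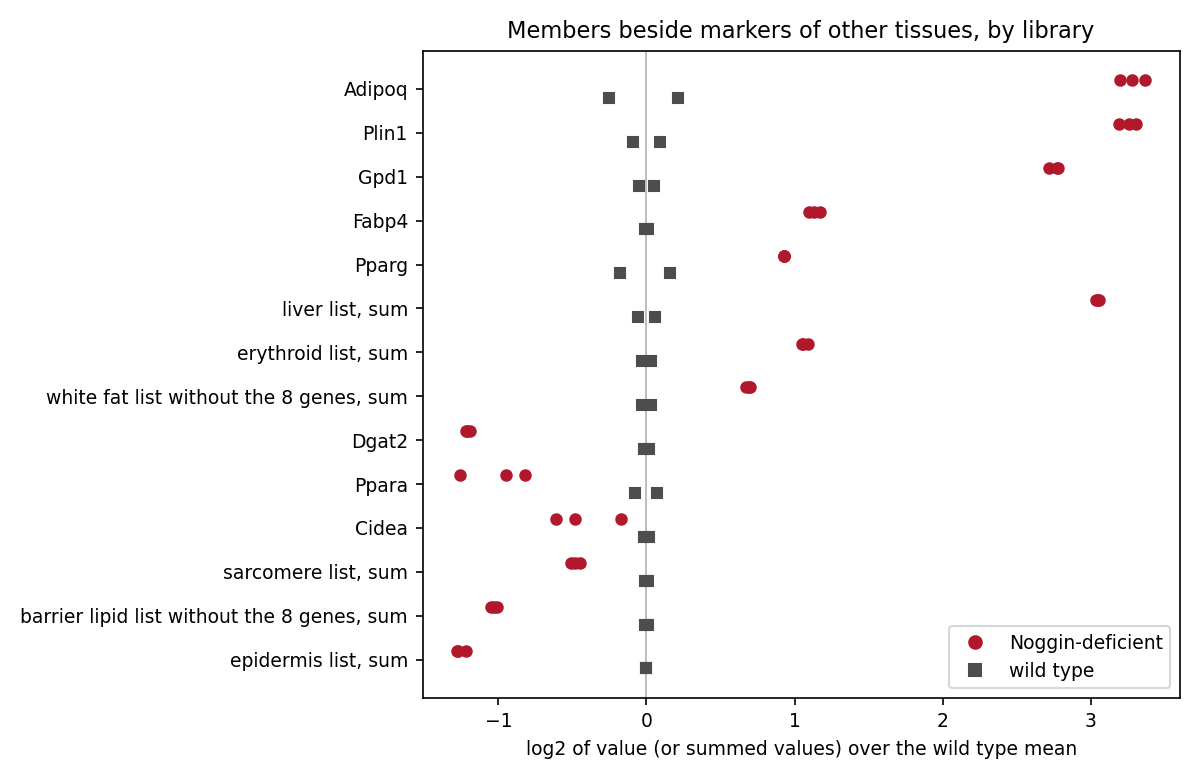
Log2 of each library's value, or of the summed values of a list, over the wild type mean (horizontal axis) for the 8 genes and 6 lists. Red circles are Noggin-deficient and grey squares wild type libraries. Adipoq and Plin1 lie above 3 in the Noggin-deficient libraries, as does the liver sum, and Dgat2 lies near the epidermal and barrier lipid sums.

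The genes with the profile most like Dgat2 were Lgals7 (distance 0.036), Cers3 (0.051) and Trim29 (0.06), by the Euclidean distance of centred log2 values over 5 libraries among 3169 candidates with a mean of at least 1. Lgals7 and Trim29 are known from stratified epithelium. Nearest to Adipoq were Serpina1d (0.309), a plasma protease inhibitor, Capn11 (0.313), a calpain of testis, and Chgb (0.321), a granin of neuroendocrine cells. Nearest to Fabp4 were Apod (0.092), an apolipoprotein, Kif5a (0.109), a neuronal kinesin, and Cd83 (0.112), an immune cell protein. With 3 libraries against 2, the distance reflects mostly the size of the difference between the groups. The nearest gene to Adipoq was several times farther off than that to Dgat2, but these distances are not comparable. Adipoq had the 17th largest rise and Dgat2 the 187th largest fall of 3913 tested genes. Their wild type libraries varied by 22.7% and 1.94%.

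Gene length moved with the direction of change over the whole table. Of the tested genes in the shortest eighth by exon length, 70.7% were higher in Noggin-deficient tissue, against 6.21% in the longest. The 8 genes do not order by length: Fabp4 (896 bases) and Adipoq (1292) were higher and Cidea (1115) lower, while Plin1, the longest with 3873 bases, was higher. Removal of the length trend gave log2 differences of 2.82 for Adipoq, 2.33 for Plin1, 2.70 for Gpd1, 0.71 for Fabp4 and 0.84 for Pparg. It gave -1.29 for Dgat2, -0.62 for Ppara and -0.72 for Cidea. The largest movements were those of Fabp4, whose difference was 1.13 before, and of Cidea, whose difference was -0.39.

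**Figure D4:**
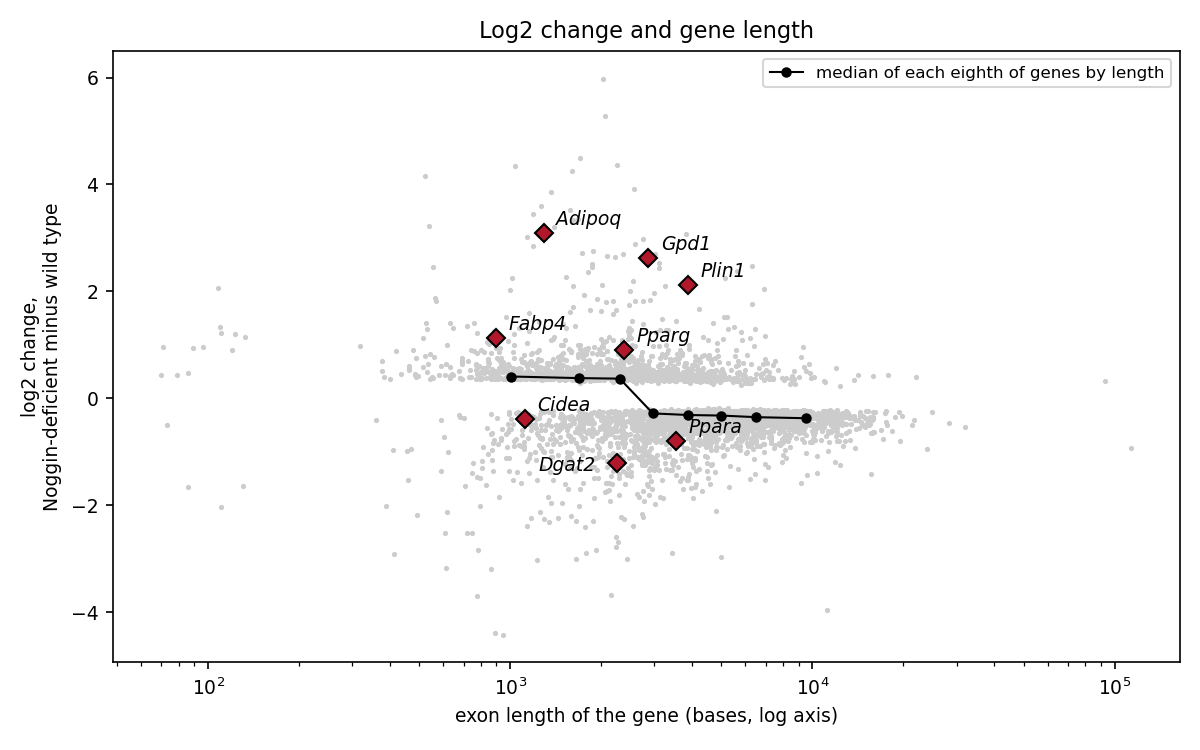
Log2 change (vertical axis, Noggin-deficient minus wild type) against exon length in bases (horizontal log axis) for the tested genes with a length (grey), the median of each eighth by length (black) and the 8 genes (red diamonds). Medians are above 0 in the 3 shortest eighths and below 0 in the others, and the 8 genes show no such order.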

How the data were processed

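Stranded mRNA libraries of forelimb muscle were sequenced, per the labels' protocols. The genotype label put 3 samples in the Noggin-deficient group and 2 in the wild type group. The deposited signal values, 1 per gene and sample with 2 decimals, come from the authors' normalization, whose unit has no name in the tables. Tools named in the submitters' processing notes are STAR 2.4.2a and DESeq2, with the build mm9. The role of each, the annotation and the choice of listed genes were not given in the sources used here. Depth is unknown, so no counting interval or detection limit was computed.

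All 4743 genes entered 1 fit. A value of 0.5 or more was required in 2 or more libraries, which left 3913 for limma 3.58.1 (trend, R 4.3.3) on log2(value + 0.25), as the difference of Noggin-deficient tissue from wild type tissue, with Benjamini-Hochberg adjustment over all tested genes and a call at 0.05. The fit was tested on simulated data. The design covers 1 factor, and no batch is labelled. Exon lengths (GENCODE M21, matched by symbol) were found for 4456 genes (93.9%).

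The genes of the set and the lists were chosen with earlier results of these data known. List genes were named by rule: up to 3 called genes outside the set with the largest rise and up to 3 with the largest fall of each fat or lipid list, 1 each of the other lists, and the 3 nearest profiles of Adipoq, Fabp4 and Dgat2. A gene that this rule names is not reported here. Alternatives were other pseudocounts (1 and 0.05), no or a stricter minimum, 2 other scalings, no intensity trend, a replicate block and leaving out each library. Added after seeing the data were removal of a lowess length trend, limma's test against a 1.5-fold change, the lists without the 8 genes, and the lists without genes at the minimum in 1 group alone.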

Additional observations from a re-analysis of the deposited data

How the results depend on the processing

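The 8 genes kept the sign of their difference under each alternative that gave a value. Over these, Adipoq ranged from 2.64 to 3.34, Plin1 from 1.12 to 2.91, Gpd1 from 2.32 to 2.88, Fabp4 from 0.71 to 1.40, Pparg from 0.74 to 1.16, Dgat2 from -1.29 to -0.93, Ppara from -0.96 to -0.50 and Cidea from -0.72 to -0.13. Plin1 and Ppara fell below the stricter minimum. Median-of-ratios scaling, upper-quartile scaling and removal of the length trend shifted the median of all genes by 0.255, 0.191 and 0.286.

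Of all genes, 1484 were called higher and 2352 lower. Against a 1.5-fold change these were 165 and 404. The lower calls were 1272 with median-of-ratios factors, 1611 with upper-quartile factors and 1301 of 3732 tested without the length trend. The higher calls were 1488, 1488 and 1219 under these settings. With the stricter minimum, 1015 of 2866 tested genes were called higher and 1846 lower. Leaving out 1 library gave 1402 to 1449 higher and 2056 to 2318 lower.

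The white fat list (15 higher, 4 lower) had 2 lower under median-of-ratios scaling, and 9 higher and 0 lower against a 1.5-fold change. Its median of 0.84 was 0.51 with a pseudocount of 1, 0.62 with no minimum, 0.68 with the stricter one, 1.05 and 1 under the median-of-ratios and upper-quartile scalings, 0.43 without the 8 genes and 0.48 over the genes at the minimum in both groups. Leaving out 1 library gave 15 higher, 3 to 4 lower and medians of 0.71 to 0.9. The brown fat list (9 higher, 13 lower) had 4 higher and 8 lower with the stricter minimum, 5 lower with median-of-ratios factors, 6 with upper-quartile factors, 7 without the length trend, and 2 higher and 2 lower against a 1.5-fold change. Its median was -0.06, -0.11 and 0.00 under those scalings and that removal, against -0.030, -0.094 and 0.001 over all tested genes. Lower calls among all tested genes dropped as well under these settings, from 2352 to 1272, 1611 and 1301. Leaving out 1 library gave 9 higher, 8 to 13 lower (8 without the second wild type library) and medians of -0.3 to -0.27. The oxidation list (6 higher, 6 lower) had 1 and 2 lower under median-of-ratios and upper-quartile scaling, and 0 higher and 0 lower against a 1.5-fold change. Its median of -0.26 turned to 0.01 with no minimum, 0.06 with the stricter one and 0.01 under median-of-ratios scaling, and was -0.06 under upper-quartile scaling, -0.18 with a pseudocount of 1 and -0.04 after removal of the length trend. Leaving out 1 library gave 6 higher, 6 to 7 lower and medians of -0.28 to -0.14. Fewer genes tested accounts for counts under the stricter minimum by construction. The 2 scalings and the removal of the length trend shifted the median of all tested genes too, by 0.255, 0.191 and 0.286. The other causes were not tested.

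Replicate numbers are shared between the groups, but nothing in the labels pairs the libraries, and same-numbered libraries' deviations correlated at -0.13 and -0.06 across genes. With a replicate block, 1468 genes were called higher and 2304 lower.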

Other observations

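Genes of fat cell precursors were more often lower than higher, as was the whole table on the values as deposited. Of 34 on the list 13 were tested, of which 10 fell and 3 rose, against 60.1% lower and 37.9% higher among all tested genes. Their median was -0.47, against -0.285 over all tested genes. With median-of-ratios factors it was -0.21, against -0.030 over all tested genes, and 9 of the 13 were called lower. Without the length trend it was -0.31, against 0.001, and again 9 were lower. Among all tested genes, 1272 of 3913 and 1301 of 3732 were called lower under these settings. Dpp4, which marks early fat cell progenitors in mice, had 3.1, 3.19 and 2.94 in Noggin-deficient tissue and 4.64 and 5.38 in wild type tissue, which is a difference of -0.66 on the log2 scale (SE 0.0733; adjusted p by limma 8.7e-05). F3, which marks a group of progenitors that hold back fat formation, had a log2 change of -0.58, and Cd55, found with Dpp4 on early progenitors, one of -0.56. The Wnt antagonist genes Sfrp1 and Sfrp2 rose by 0.82 and 0.56, and Icam1, which marks committed precursors but also endothelium, by 0.39. Against a 1.5-fold change, 1 of the 13 passed, Sfrp1, with a limma adjusted p of 0.00069. Among all tested genes, 4.22% passed as higher and 10.3% as lower, so 1 of 13 does not set the list apart. Many of these genes are also made by other connective tissue cells.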
